A study of Mus musculus with 208 samples.

Results

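Endothelial cells line the blood vessels of the brain, and mural cells (pericytes and smooth muscle cells) wrap them. This account follows 10 genes of these cells in the mouse striatum, chosen by symbol from a list: 8 that mark or serve endothelial cells (Pecam1, Cldn5, Flt1, Kdr, Tek, Abcb1a, Slco1a4 and Slc2a1) and 2 that mark mural cells (Pdgfrb and Rgs5), of 39179 gene IDs in all. All 10 were found in the files, and all 10 passed the filter on low counts at each age. Polyadenylated RNA was sequenced from 26 groups of 8 libraries. The knock-in animals were heterozygous on the C57BL/6 strain and carried 1 Htt allele with a CAG repeat of 20, 80, 92, 111, 140 or 175 (lines Q20, Q80, Q92, Q111, Q140 and Q175), at 2, 6 and 10 months. Wild types were housed with Q20 at 2 and 10 months and with each of the 6 lines at 6 months. Of the groups, 24 held 4 females and 4 males, Q80 at 2 months held 3 females and 5 males, and Q20 at 10 months held 5 females and 3 males.

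Brain endothelium forms the blood-brain barrier: tight junctions seal the cells to each other, carriers bring in nutrients, and efflux pumps return foreign compounds to the blood. Signals of the VEGF family act through the receptors encoded by Flt1 and Kdr, and angiopoietins act through the receptor encoded by Tek. Platelet-derived growth factor from endothelium holds pericytes to the vessel through the receptor encoded by Pdgfrb. In bulk tissue, fewer vascular cells and less RNA per cell cannot be told apart.

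Summed counts ranged from 29.1 M to 49.6 M per library (M, mega), and the median was 41.0 M for the 6-month libraries, above the medians of the youngest (31.9 M) and oldest (33.0 M). At 2 months 5 libraries stood apart, with a median correlation under 0.97 with the others: Q80 M5, Q20 M2 and M3, and Q92 M3 and M4 (F and M give the sex, the digit the replicate). These 5 and 2 more (Q111 F2 and the wild type F1) had over 15% of their counts on mitochondrial genes. Of 104 libraries labelled male, 1 (Q80 M3 at 2 months) had no signal from 4 Y-linked genes. Htt itself had a log2 fold change against Q20 at 6 months of -0.24 in Q140 (edgeR adjusted p = 1.14e-12) and -0.41 in Q175 (edgeR adjusted p = 6.27e-25). Markers of medium spiny neurons, the main neurons of the striatum, had a summed level of 3700 to 4360 FPKM in Q20 at 6 months, so the defining neurons of the labelled tissue were present. FPKM counts fragments per kilobase of transcript, scaled to the library's total, and is the scale used here to compare genes.

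By level, the glucose carrier gene Slc2a1 came first, with a mean over all libraries of 43.6 FPKM (SD 8.05), followed by Rgs5, a regulator of G-protein signalling in pericytes, with 28.1 FPKM (SD 2.57). Slco1a4, an organic anion carrier, had 22.8 FPKM (SD 3.32) and Cldn5, the main tight junction claudin, had 17 FPKM (SD 4.67). Flt1 had 13.2 FPKM (SD 1.96), and the efflux pump gene Abcb1a had 10.2 FPKM (SD 1.08). Pecam1, a junction adhesion molecule, had 7.52 FPKM (SD 0.741), Pdgfrb 6.03 FPKM (SD 0.972), Tek 3.69 FPKM (SD 0.484) and Kdr 2.42 FPKM (SD 0.467). The mean ± SD ranges of neighbours in this order overlapped, except between Slc2a1 and Rgs5, Abcb1a and Pecam1, Pdgfrb and Tek, and Tek and Kdr. The group means of Kdr ran from 1.92 FPKM in Q140 at 10 months to 2.84 FPKM in Q80 at 6 months. Those of Rgs5 ran from 24.5 FPKM in Q140 at 6 months to 31.3 FPKM in Q92 at 10 months. Ages were fitted separately, except to compare the Q175 change between ages, so levels at different ages stand side by side with no test. Abcb1a and Slco1a4 have close paralogs, and how the authors shared reads among such copies is not given in the sources used here.

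**Figure D1:**
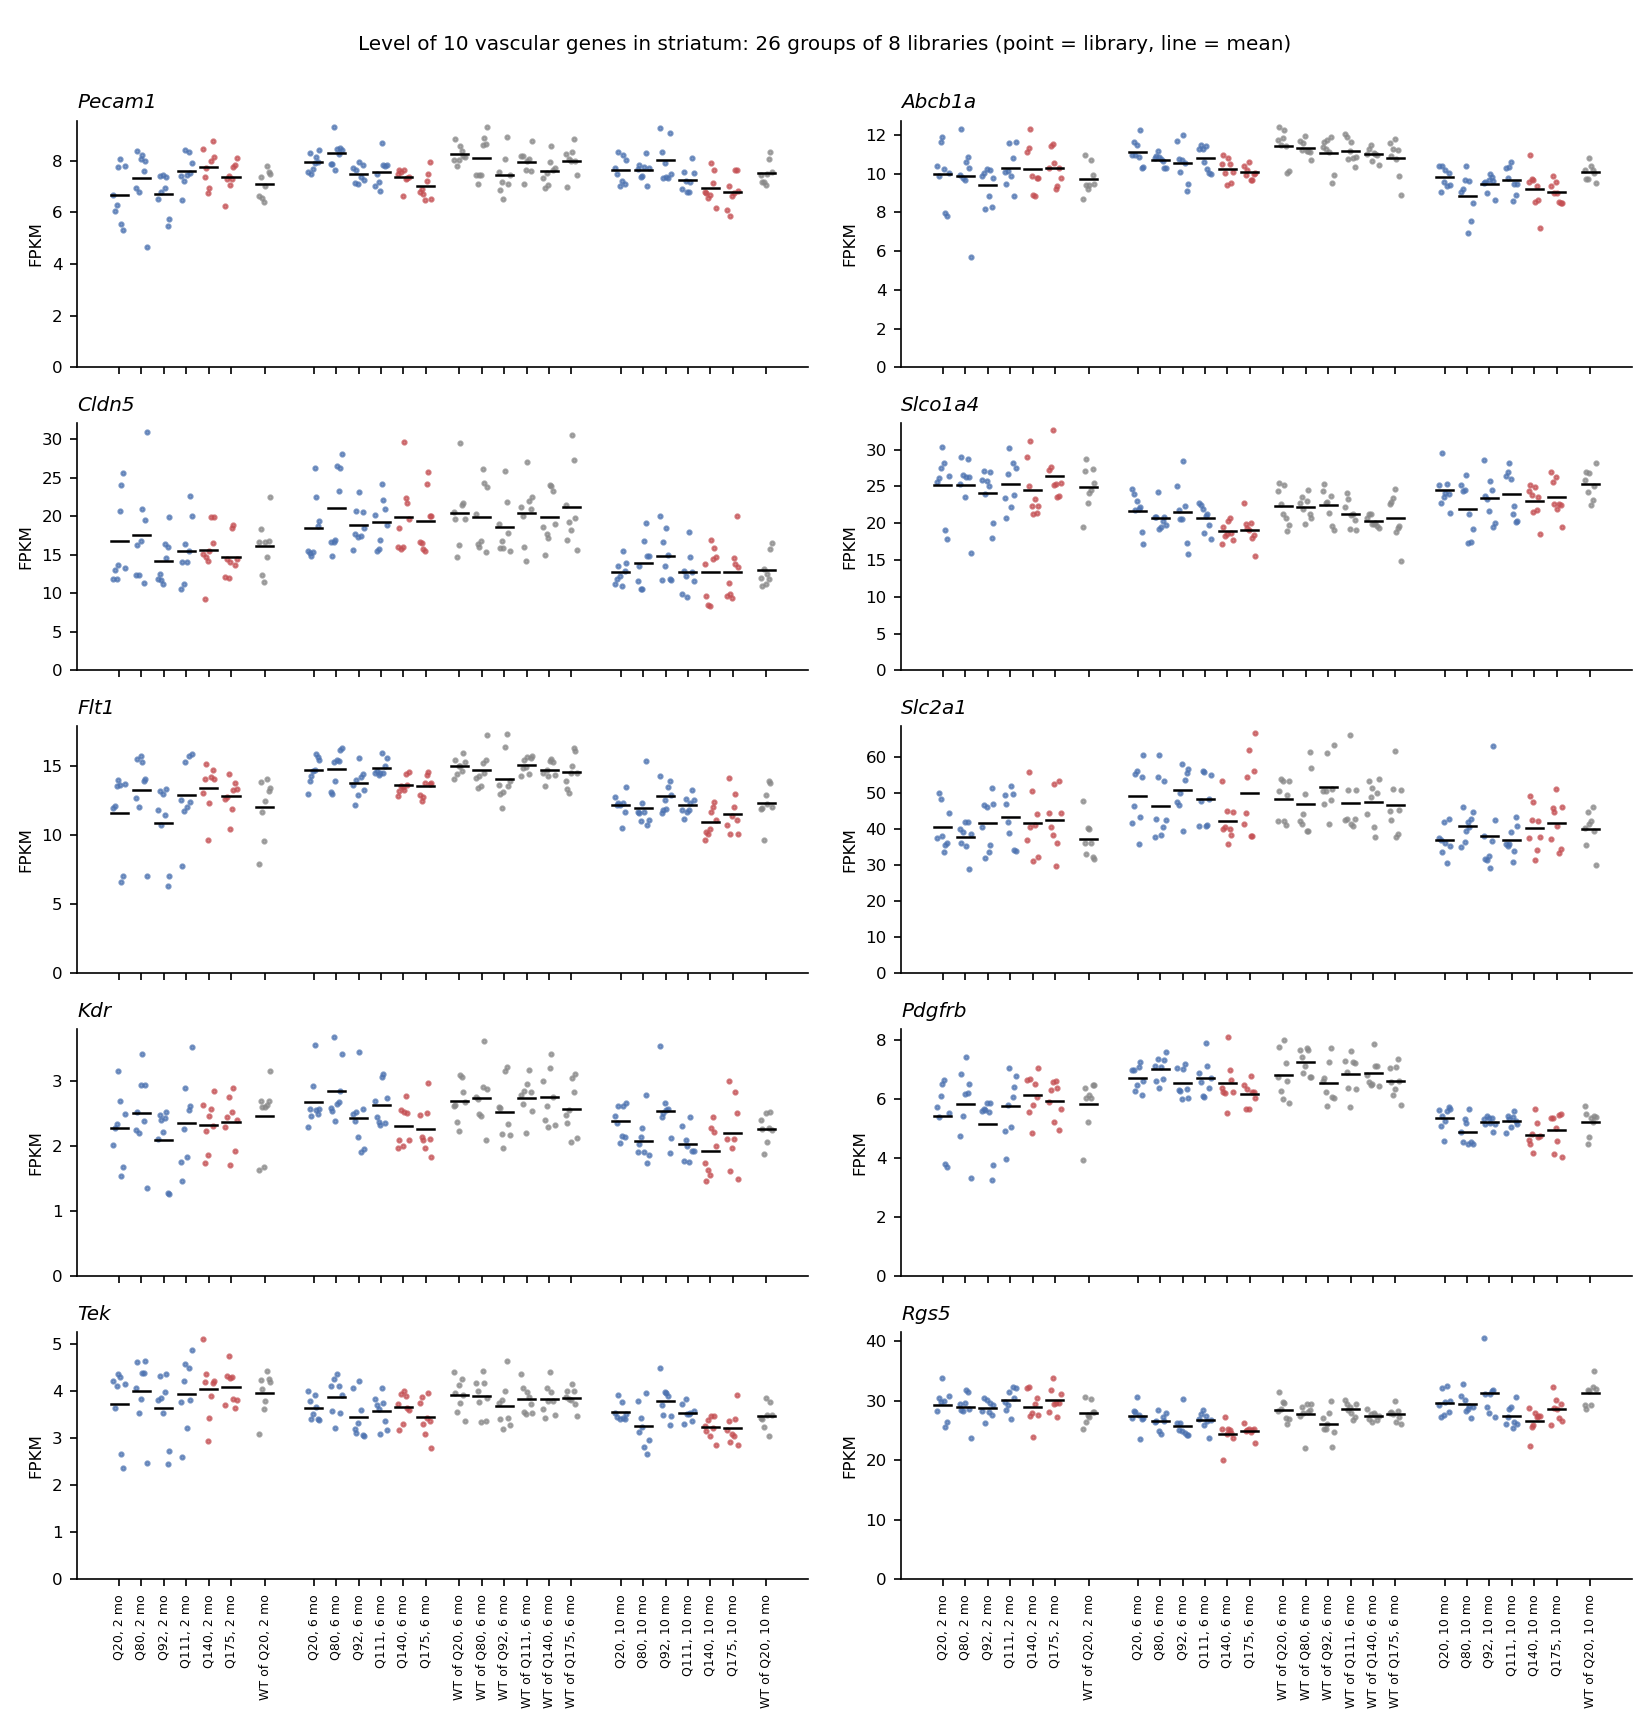
Each panel plots 1 gene in FPKM (vertical axis, from 0) for the 26 groups (horizontal axis, line and age in months), with a point per library and a line at the group mean. Lines Q140 and Q175 are red, the other knock-in lines blue and wild types grey. The low points of Flt1, Kdr, Tek and Pdgfrb at 2 months include the libraries that stood apart.

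Flt1, Kdr and Tek encode growth factor receptors, and of these Flt1 and Kdr were lower in Q140 and Q175 at 6 months. Slc2a1 varied opposite to the mean of the rest of the 10. Promoters of these 4 genes are shown. Each is the 250 bases before the annotated start, 5′ to 3′ on the gene's strand, from RefSeq (GRCm38.p6). Of the 10 genes, 8 had a promoter in the set kept, which left out a chromosome and lacked Pecam1 and Pdgfrb. The authors' build is not given in the sources used here. Capitals mark matches, on both strands, to 5 letter strings: GGAAGT and its shorter form GGAAG, which overlap (ETS factors), AGAACA (an arm of the steroid receptor element), ACGTG (hypoxia-inducible factors) and TATAAA (the TATA box). GGAAG was added after the matches to the other 4 had been seen.
Flt1 (chr5:147726012-147726261, minus strand): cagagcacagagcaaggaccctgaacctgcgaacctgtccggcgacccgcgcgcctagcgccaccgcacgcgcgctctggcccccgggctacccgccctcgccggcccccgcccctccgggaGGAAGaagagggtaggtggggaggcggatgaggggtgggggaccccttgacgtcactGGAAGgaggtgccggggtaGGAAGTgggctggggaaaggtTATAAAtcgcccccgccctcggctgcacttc
Kdr (chr5:75978456-75978705, minus strand): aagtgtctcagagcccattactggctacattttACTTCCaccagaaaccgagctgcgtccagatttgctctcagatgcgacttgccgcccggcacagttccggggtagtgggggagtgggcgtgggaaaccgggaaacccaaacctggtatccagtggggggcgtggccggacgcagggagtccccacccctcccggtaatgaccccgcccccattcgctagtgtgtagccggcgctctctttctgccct
Tek (chr4:94739039-94739288, plus strand): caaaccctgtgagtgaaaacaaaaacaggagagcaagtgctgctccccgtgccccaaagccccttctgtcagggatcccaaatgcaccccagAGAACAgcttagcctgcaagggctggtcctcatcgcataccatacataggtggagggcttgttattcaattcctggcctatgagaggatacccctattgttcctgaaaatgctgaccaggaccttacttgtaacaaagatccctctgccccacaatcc
Slc2a1 (chr4:119108495-119108744, plus strand): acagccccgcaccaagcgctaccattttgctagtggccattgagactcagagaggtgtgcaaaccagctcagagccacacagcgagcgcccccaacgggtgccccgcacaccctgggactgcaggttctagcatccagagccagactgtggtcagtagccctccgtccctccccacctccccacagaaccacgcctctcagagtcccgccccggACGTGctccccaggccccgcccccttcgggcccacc

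Flt1 held GGAAGT 1 time, GGAAG 3 times (that match included) and TATAAA 1 time. Kdr held GGAAGT 1 time, on the other strand. Tek held AGAACA 1 time and no GGAAG, and Slc2a1 held ACGTG 1 time. Among all 32851 promoters of the table, windows of the same length held GGAAGT in 19.7%, GGAAG in 64.1%, AGAACA in 16.1%, ACGTG in 16.6% and TATAAA in 12.4%. Of the genes not printed, Abcb1a and Slco1a4 each held GGAAG 2 times, and Cldn5 and Rgs5 held none of the 5 strings. These matches describe letters only.

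In Q175 at 6 months, 7 of the 10 genes were lower than in Q20: Pecam1, Flt1, Kdr, Abcb1a, Slco1a4, Pdgfrb and Rgs5. Among all genes 18.2% were called lower in this comparison. The falls were small, with changes from -12.2% for Flt1 to -19.3% for Kdr. The median log2 fold change over the 10 genes was -0.20, against 0.01 over all 17642 genes tested. A gene was called at an edgeR adjusted p under 0.05, adjusted over all genes tested. Levels beside the tests are CPM, counts per M counts of the scaled library.

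Pecam1 ran from 20.2 to 25.01 CPM in Q175 (median 21.7) and from 24.8 to 28.4 CPM in Q20 (median 26.4). The ranges overlapped slightly, and all 8 Q175 libraries lay under the Q20 mean. The log2 fold change was -0.25 (SE 0.0419, edgeR adjusted p = 8.61e-07). For Abcb1a, Q175 ran from 45.8 to 51.6 CPM (median 47.9) and Q20 from 52.2 to 62.4 CPM (median 55.1). Here the groups did not overlap, and the log2 fold change was -0.21 (SE 0.0388, edgeR adjusted p = 5.02e-06). It was the only one of the 10 genes whose Q175 and Q20 libraries were fully separate at 6 months. The share of all genes so separated was not counted, in this comparison or in those below.

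Among the receptors, Kdr fell most. It ran from 10.4 to 17.1 CPM in Q175 (median 12.1) and from 13.7 to 21.4 CPM in Q20 (median 15.3), a log2 fold change of -0.31 (SE 0.0946, edgeR adjusted p = 0.00631). The groups overlapped, with 7 of 8 Q175 libraries under the Q20 mean. Flt1 ran from 79.8 to 94.0 CPM in Q175 (median 88.6) and from 87.6 to 108.1 CPM in Q20 (median 99.4), a log2 fold change of -0.19 (SE 0.0385, edgeR adjusted p = 3.89e-05). Tek had a log2 fold change of -0.14 and did not pass (SE 0.0672, edgeR adjusted p = 0.0879). It passed under 3 alternatives: with the replicate block (edgeR adjusted p = 0.0168), without Q175 F2 (0.0494) and without Q175 M2 (0.0408).

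Both mural genes were called. Rgs5 ran from 89.6 to 104.4 CPM in Q175 (median 99.4) and from 98.3 to 126.2 CPM in Q20 (median 114.9), a log2 fold change of -0.21 (SE 0.0456, edgeR adjusted p = 0.000135). Pdgfrb ran from 29.4 to 35.0 CPM in Q175 (median 32.6) and from 33.8 to 40.1 CPM in Q20 (median 37.4), a log2 fold change of -0.20 (SE 0.0540, edgeR adjusted p = 0.0024). All 8 Q175 libraries lay under the Q20 mean for both genes, with overlapping ranges. The Pdgfrb call was lost with limma on the FPKM (adjusted p = 0.0608).

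The carriers split. Slco1a4 ran from 46.3 to 66.6 CPM in Q175 (median 54.9) and from 53.4 to 71.0 CPM in Q20 (median 68.8), a log2 fold change of -0.24 (SE 0.0632, edgeR adjusted p = 0.00158). Slc2a1 ran from 94.1 to 165.3 CPM in Q175 (median 123.8) and from 94.0 to 161.6 CPM in Q20 (median 131.8), so the groups covered the same range. Its log2 fold change was -0.04 (SE 0.114, edgeR adjusted p = 0.806). Cldn5 had a log2 fold change of -0.01 (SE 0.10, edgeR adjusted p = 0.973).

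Compared with the wild types of the same cages at 6 months, 8 of the 10 genes were lower in Q175 (16.1% of all genes were called lower). These were the same 7 genes and Tek, which had a log2 fold change of -0.23 (SE 0.0671, edgeR adjusted p = 0.00377). With limma on the FPKM the count was 5. Rgs5 did not overlap in this comparison: Q175 ran from 89.6 to 104.4 CPM and its cage mates from 109.6 to 125.2 CPM, with medians of 99.4 and 115.4 CPM. Its log2 fold change was -0.23 (SE 0.0456, edgeR adjusted p = 3.12e-05). The Kdr call (log2 fold change -0.25, edgeR adjusted p = 0.0336) and the Slco1a4 call (-0.17, edgeR adjusted p = 0.0305) were lost under 13 and 11 of the alternatives. Both Q175 comparisons use the same Q175 libraries.

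Q140 at 6 months had 6 of the 10 genes lower than Q20, with 14.1% of all genes called lower: Pecam1 (log2 fold change -0.15), Flt1 (-0.16), Kdr (-0.26), Abcb1a (-0.17), Slco1a4 (-0.22) and Rgs5 (-0.21). Pecam1 was fully separate, from 21.5 to 24.5 CPM in Q140 (median 24.0) and from 24.8 to 28.4 CPM in Q20. Slc2a1 had the largest difference, -0.27, but also the largest SE (0.114), and did not pass (edgeR adjusted p = 0.066). It passed under 5 alternatives: with the replicate block (log2 fold change -0.25, edgeR adjusted p = 0.00271), with the tissue scores (0.0424), and without Q140 F1 (0.0368), Q20 F1 (0.0387) or Q20 M1 (0.0295). Its level at this age also differed between replicate numbers. Against its own cage mates, Q140 had 4 genes lower (Flt1, Kdr, Abcb1a and Rgs5), with 11.7% of all genes called lower. The Kdr call against Q20 had an edgeR adjusted p of 0.0313 and was lost under 9 of the alternatives. Q140 and Q175 share the Q20 libraries as their reference, so their values against Q20 are not independent.

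The shorter repeats gave almost no calls at 6 months. In Q92 only Flt1 was lower than in Q20, with a log2 fold change of -0.12 (SE 0.0387, edgeR adjusted p = 0.0419), where 5.99% of all genes were called. None of the 10 genes passed edgeR in Q111 (12.8% of all genes called) or Q80 (0.289%), and 1 and 0 of them had an unadjusted p under 0.05. Against their own cage mates none passed edgeR in Q111 (8.94%), Q92 (0.051%), Q80 (0.051%) or Q20 (0.0227%), with 4, 1, 1 and 0 genes at an unadjusted p under 0.05. Among the 6 wild-type groups of 6 months none of the 10 genes passed edgeR (1.34% of all genes called, 3 of the 10 at an unadjusted p under 0.05).

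**Figure D2:**
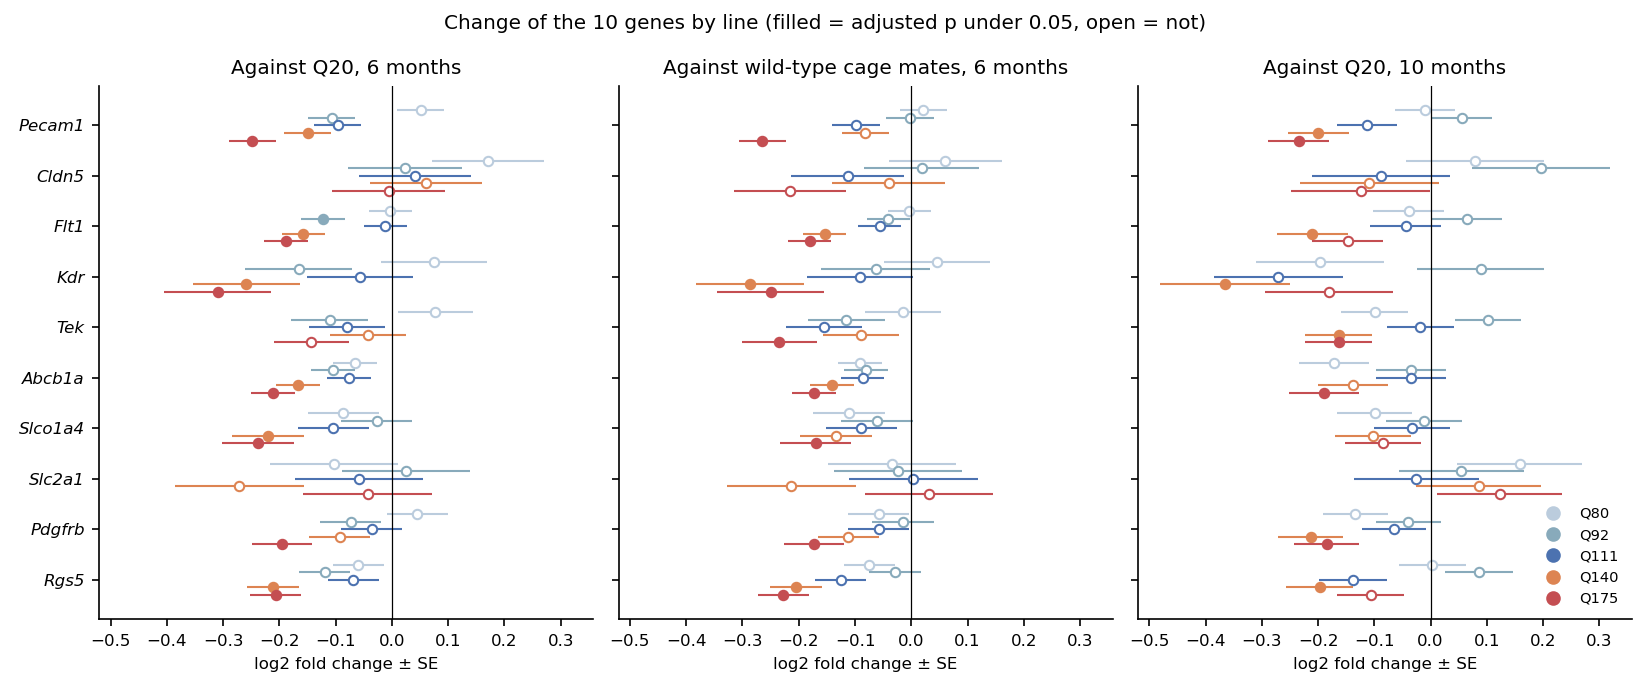
The log2 fold change with its SE (horizontal axis) is plotted for the 10 genes (vertical axis) in 5 lines, against Q20 at 6 months, against wild-type cage mates at 6 months and against Q20 at 10 months. Filled points passed the threshold: 7, 8 and 4 genes in Q175 and 6, 4 and 6 in Q140, all to the left of 0.

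At 10 months Q140 had 6 genes lower than Q20 (11.6% of all genes called lower): Pecam1 (log2 fold change -0.20), Flt1 (-0.21), Kdr (-0.37), Tek (-0.16), Pdgfrb (-0.21) and Rgs5 (-0.20). Kdr ran from 8.47 to 14.2 CPM in Q140 (median 10.8) and from 12.3 to 16.4 CPM in Q20 (median 14.4), with all 8 Q140 libraries under the Q20 mean and overlapping ranges (SE 0.115, edgeR adjusted p = 0.0164). Q175 had 4 genes lower (12.1% of all genes called lower): Pecam1 (-0.23), Tek (-0.16), Abcb1a (-0.19) and Pdgfrb (-0.18). Pecam1 ran from 19.1 to 24.1 CPM in Q175 (median 21.6) and from 23.1 to 28.5 CPM in Q20 (median 24.9), with an SE of 0.0536 and an edgeR adjusted p of 0.000701. The Q175 count was 2 without Q175 M4 and 1 with limma on the FPKM. Tek was lost under 13 alternatives in Q140 and 11 in Q175.

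None of the 10 genes passed edgeR at 10 months in Q111 (12.5% of all genes called), Q92 (1.12%) or Q80 (0.122%), with 3, 0 and 2 genes at an unadjusted p under 0.05. None of them passed edgeR in Q20 against wild type (0.0116%, with 0 genes at an unadjusted p under 0.05). By edgeR the Q175 change differed between 10 and 6 months in none of the 10 genes (0.0112% of all genes called, 0 at an unadjusted p under 0.05).

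At 2 months no gene of the 10 passed edgeR in Q80 (0.0118% of all genes called), Q92 (0%), Q111 (0.0176%), Q140 (0%) or Q175 (0.218%), nor in Q20 against wild type (0%). At an unadjusted p under 0.05 there were 1 gene in Q111, 2 in Q140 and 0 in the others. The median log2 fold change of the 10 genes in Q175 was 0.06 with all libraries and -0.03 without the 5 libraries that stood apart, so no direction is read at this age. The change in Q175 against Q20 was more negative at 6 than at 2 months for 9 of the 10 genes, and the difference passed for Pecam1 (-0.35 on the log2 scale, SE 0.0789, edgeR adjusted p = 0.000954), where 7.88% of all genes were called. Without the libraries over 15% mitochondrial counts it was -0.27 (edgeR adjusted p = 0.00706).

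Lists of other vascular genes were read against the same background at 6 months, 18.2% of all genes called lower in Q175 than in Q20 and a median log2 fold change of 0.01. Of 30 other endothelial genes, 17 were lower (56.7%), 0 were higher and the rest did not pass, with a median of -0.19. Plvap, which encodes the diaphragm protein of fenestrated endothelium, changed by -0.62 (edgeR adjusted p = 1.54e-11), from a mean of 8.65 CPM in Q20 to 5.62 CPM in Q175. It also changed in Q140 at 6 months (-0.43) and in Q175 at 10 months (-0.31). Ctla2a (-0.51), Clec14a (-0.42) and Vwf, which encodes von Willebrand factor (-0.32), were called in Q175 at 6 months. At 10 months these 3 had values of -0.10, -0.06 and -0.08, which did not pass.

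Of 22 other mural genes, 8 were lower (36.4%, against 18.2% of all genes) and 0 higher in Q175 at 6 months, with a median of -0.12. Tagln, a smooth muscle actin-binding protein, changed by -0.36 (edgeR adjusted p = 1.87e-05), with -0.42 in Q140 at 6 months and -0.33 in Q175 at 10 months. Lmod1, of smooth muscle actin filaments, changed by -0.34 at 6 months and by -0.57 at 10 months. Abcc9 and Kcnj8, the subunits of the pericyte ATP-sensitive potassium channel, changed by -0.30 and -0.27 at 6 months. At 10 months their values of -0.12 and -0.01 did not pass.

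Of 19 other barrier junction and carrier genes, 5 were lower (26.3%, against 18.2% of all genes) and 0 higher in Q175 at 6 months, with a median of -0.08, and the count is near the background. Slco1c1, the thyroxine carrier, changed by -0.26 (edgeR adjusted p = 0.000245), Abcc4 by -0.21, Slco2b1 by -0.18 and Slc38a3, a glutamine carrier, by -0.16. Of 18 vascular ligands, 4 were lower (22.2%, likewise near the 18.2% of all genes) and 1 higher, with a median of -0.05. Jag1, a Notch ligand, changed by -0.74 (edgeR adjusted p = 2.79e-07), from a mean of 16.1 to 9.63 CPM, and again by -0.74 at 10 months. Vegfa, the ligand of Flt1 and Kdr, changed by -0.32 at 6 months (edgeR adjusted p = 4.58e-05) and had -0.05 at 10 months, which did not pass. Wnt7a, a barrier-forming Wnt ligand, changed by -0.28 and by -0.38 at 10 months. Angpt1, the ligand of Tek, was higher, by 0.52 (edgeR adjusted p = 0.00636). Its values of 0.32 in Q140 at 6 months and 0.34 in Q175 at 10 months did not pass.

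Of 17 other vascular receptor and effector genes, 8 were lower (47.1%, against 18.2% of all genes) and 0 higher in Q175 at 6 months, with a median of -0.11. Acvrl1, a receptor of the TGF-beta family, changed most, by -0.84 (edgeR adjusted p = 1.12e-20), from a mean of 54.0 to 30.3 CPM, with -0.71 in Q140 and -0.70 in Q175 at 10 months. Plxnd1, a semaphorin receptor, changed by -0.46, Flt4, a receptor of VEGF-C, by -0.27 and S1pr1, a sphingosine phosphate receptor, by -0.21. At 10 months Plxnd1 (-0.28) and S1pr1 (-0.22) were again called in Q175, and Flt4 had 0.04, which did not pass. Ligands and several receptors here are also made by neurons and glia, and which cells carried each change was not tested.

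Markers of other cells are given beside these counts. In Q175 against Q20 at 6 months, 10 of 11 medium spiny neuron genes were lower (median -0.89), with a summed level of 2100 to 2400 FPKM in Q175. Of the astrocyte genes 4 were lower (40%, against 18.2% of all genes) and 1 higher of 10. Of 10 oligodendrocyte genes 4 were lower (40%), and the others were higher or did not pass. Of the microglial genes 2 of 12 were lower, near the 18.2% of all genes. In Q140 9 of the 12 were lower, where 14.1% of all genes were, and their part in the Q140 values above was not tested. In Q175 none of the 10 perivascular fibroblast genes or 5 blood genes passed edgeR. The summed blood genes ran from 179 to 407 FPKM in Q175 and from 163 to 383 FPKM in Q20. The summed thalamic genes ran from 22.5 to 115 FPKM in Q175 and from 19.6 to 30.9 FPKM in Q20, and no thalamic, choroid plexus or cortical marker was at 0 in all libraries. With summed marker scores for cortex, thalamus and choroid plexus in the model, the direction of each of the 10 genes in Q175 against Q20 at 6 months was as without them, except for Cldn5 (0.02). The part of the other cell types in the result was not tested.

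Cldn5 was lower in females than in males at each age. The code after the line in the library names mostly went with the sex label at 2 and 10 months. Code and sex can hardly be told apart there, and the labels do not say what the code stands for. The level of Cldn5 at 6 months also differed between replicate numbers, as given below. At 2 months Cldn5 ran from 9.23 to 18.4 FPKM in 27 females (median 12.4) and from 11.3 to 30.9 FPKM in 29 males (median 16.8). At 6 months it ran from 14.2 to 21.5 FPKM in 48 females (median 16.6) and from 15.4 to 30.6 FPKM in 48 males (median 22.3). At 10 months it ran from 8.36 to 20.0 FPKM in 29 females (median 11.3) and from 11.7 to 20.0 FPKM in 27 males (median 14.8). All 5 libraries that stood apart at 2 months were labelled male, and their Cldn5 ran from 15.98 to 30.9 FPKM (median 24.0), against 11.3 to 22.6 FPKM (median 16.7) in the other 24 males. Q80 M3, which lacked Y-linked signal and carried the code of the Q80 females, was kept as labelled and had the 11.3 FPKM. The sexes overlapped at each age, and females had the lower mean in 7 of 7, 12 of 12 and 6 of 7 groups. The log2 fold change of females against males was -0.50 at 2 months (SE 0.0851, edgeR adjusted p = 0.000219), -0.39 at 6 months (SE 0.041, edgeR adjusted p = 1.76e-12) and -0.34 at 10 months (SE 0.0659, edgeR adjusted p = 0.00106).

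Without the 5 libraries that stood apart the Cldn5 value at 2 months was -0.36 (edgeR adjusted p = 0.000559), without those over 15% mitochondrial counts -0.38 (edgeR adjusted p = 0.000538), and without Q80 M3 -0.52 (edgeR adjusted p = 3.35e-05).

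At 2 months Cldn5 was the only one of the 10 genes called between the sexes (0.923% of all genes called). Without the 5 libraries that stood apart 4 of the 10 passed: Cldn5, Pecam1 (-0.11), Kdr (-0.23) and Slco1a4 (0.11). Without those over 15% mitochondrial counts 2 passed, Cldn5 and Slco1a4. The share of all genes called was not counted for the refits of sex in this paragraph. At 6 months 7 of the 10 passed (18.5%): Cldn5, Flt1 (-0.12), Kdr (-0.16), Pecam1 (-0.09) and Pdgfrb (-0.08) were lower in females, and Abcb1a (0.08) and Slco1a4 (0.12) were higher. At 10 months Cldn5 was lower in females, and Abcb1a (0.14) and Slco1a4 (0.17) were higher (1.28%). With the wild-type and Q20 groups only, no gene passed at 2 or 10 months, and Cldn5 had -0.54 and -0.26. Blood genes were lower in females at 6 months in 5 of 5, with summed levels of 163 to 407 FPKM in females and 179 to 699 FPKM in males, and their part in the sex difference was not tested. A difference of the Q175 change between the sexes passed edgeR in none of the 10 genes, at 6 months (0% of all genes called) or at 10 months (0%), with 0 genes at an unadjusted p under 0.05.

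**Figure D3:**
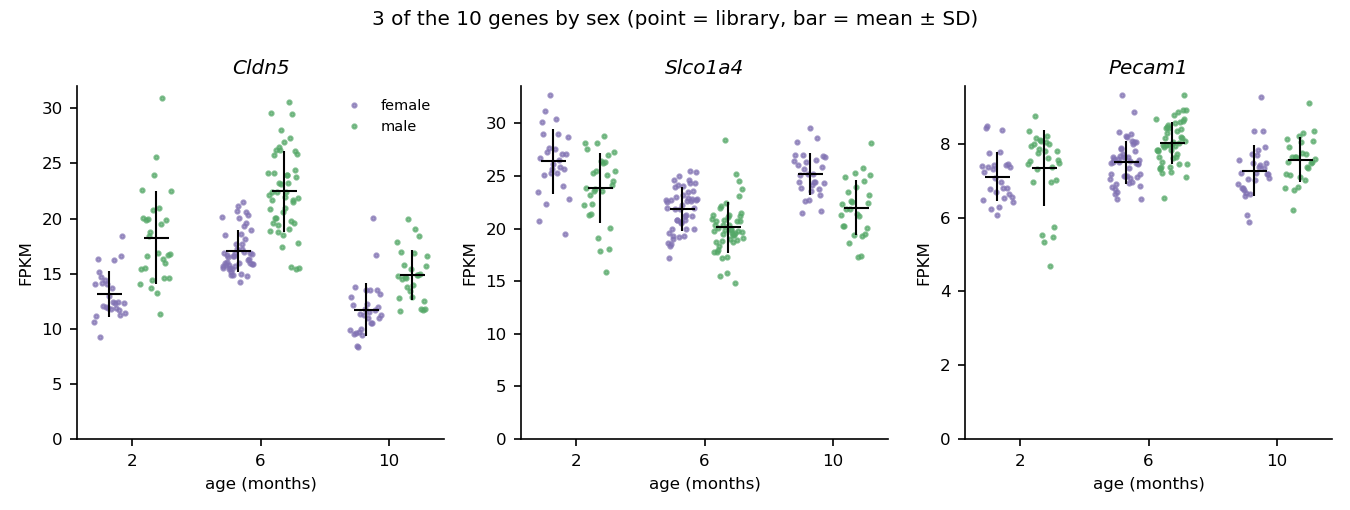
Cldn5, Slco1a4 and Pecam1 are plotted in FPKM (vertical axis, from 0) by age in months (horizontal axis) for females and males, with a point per library and bars for the mean ± SD. Cldn5 means were 13.2, 17.1 and 11.7 FPKM in females and 18.3, 22.5 and 14.9 FPKM in males.

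Animals of 1 group also differed from each other in a shared way. Deviations of log2 CPM from the group and sex means were compared over all libraries. The libraries differed in depth and in mitochondrial share, whose part in these correlations was not tested, so the correlations are descriptions. Of the 10 genes, 8 followed the mean of the other 9, with Pearson r from 0.49 (Rgs5) to 0.74 (Tek). Over the 96 libraries of 6 months the r of these 8 ran from 0.42 (Flt1, 0.70 over all libraries) to 0.62 (Pdgfrb). Cldn5 did not follow the other 9 over all libraries (r = 0.02). Its r was 0.22 without the 5 libraries that stood apart and 0.49 over the 96 libraries of 6 months. Slc2a1 ran the opposite way (r = -0.47, and -0.58 at 6 months). The genes most like the mean of the 10 were Cxcl12 (r = 0.81), Ptprb (0.80), Adgrf5 (0.76), Nfic (0.74), Cald1 (0.73), Cobll1 (0.73), Cdh5 (0.72), Abcc9 (0.72), Zeb2 (0.71) and Tie1 (0.71), of 14282 genes ranked. Without the 5 libraries that stood apart 8 of these were again among the 10 most like it. Over the libraries of 6 months only Ptprb (0.77) and Adgrf5 (0.63) were, beside Clec14a (0.74), Cyyr1 (0.68), Tgfbr2 (0.65), Tnfsf10 (0.65), Ets1 (0.64), Itm2a (0.64), Mecom (0.62) and Notch1 (0.61).

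Slc2a1 varied with a set of its own. The 5 genes most like it were Tsc22d3 (r = 0.92), Arrdc2 (0.90), Klf15 (0.89), Mfsd2a (0.89) and Map3k6 (0.88), and Sgk1 had 0.87. Tsc22d3, Klf15 and Sgk1 are known as genes that glucocorticoids raise, and Mfsd2a encodes a lipid carrier of brain endothelium. The r with Tsc22d3 was 0.93 at 2 months, 0.93 at 6 months and 0.90 at 10 months. At the other end, Tnfsf10 had r = -0.77 and Jag1 -0.76. These genes were chosen after their values were seen. At 6 months the mean level of Slc2a1 also differed between libraries of different replicate numbers in the labels: in females the means were 44.0, 45.4, 50.8 and 56.6 FPKM for numbers 1 to 4, over 12 groups each, and in males 39.2, 41.9, 50.5 and 54.5 FPKM. Cldn5 ran the other way at this age, with means of 18.5, 16.8, 16.7 and 16.4 FPKM in females. In males its means were 26.4, 22.9, 20.6 and 20 FPKM for numbers 1 to 4. The labels do not say what the number stands for, and no test was made.

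**Figure D4:**
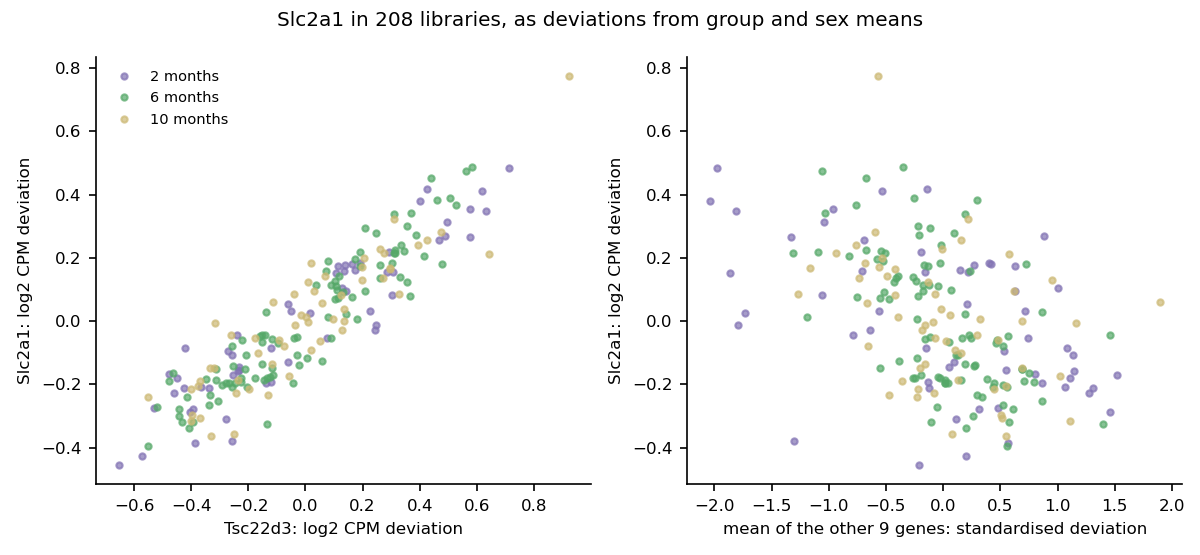
Each point is 1 library of the 26 groups, with the deviation of Slc2a1 from its group and sex mean in log2 CPM (vertical axis) against that of Tsc22d3 (left) and against the mean standardised deviation of the other 9 genes (right). The points follow a rising band with Tsc22d3 (r = 0.92) and a loose falling one with the other 9 genes (r = -0.47).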

How the data were processed

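RNA of the striatum was enriched for polyadenylated molecules and sequenced on Illumina HiSeq instruments, per the labels' protocols. CASAVA 1.8.2 is named in the submitters' processing notes. Which aligner, genome build and counting tool were used is not given in the sources used here. By the names and values of the tables, the authors deposited expected counts (estimated counts per gene, 32.7% of those above 0 not whole), which were rounded, and FPKM for the same libraries. The 3 ages had separate fits in edgeR 4.0.16 (R 4.3.3): filterByExpr (minimum count 10, minimum total 15), TMM factors, and a robust quasi-likelihood model with 1 term per group and 1 for sex. Differences of the Q175 change between ages came from 1 fit of all 208 libraries, with 17863 genes tested. Those of the Q175 change between the sexes came from fits with a term for each group and sex together. P-values were adjusted by Benjamini-Hochberg over all genes tested (17006, 17642 and 17170 in the fits of 2, 6 and 10 months) within each of 31 comparisons. The SE is the size of the log2 fold change over the square root of F. The fit was tested on simulated counts with known changes in Q175 against Q20 at 6 months. These counts held no effect of sex, replicate number or RNA quality, so the test does not cover those.

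Alternatives were DESeq2 1.42.0, RLE factors, limma 3.58.1 on log2(FPKM + 1) and log2(FPKM + 0.1), no filter, a block for replicate number, tissue scores, the L code of the library names, only the groups compared, wild types as the reference, a minimum absolute log2 fold change of 0.2, and single libraries left out. Fits of sex by other tools, without the libraries that stood apart or had over 15% mitochondrial counts or without Q80 M3, and the genes most like each of the 10, were chosen after seeing the data. The 10 genes and the lists were chosen with earlier results of these data known. Named genes are the 10, Htt, up to 4 per vascular list with the largest change among those called in Q175 against Q20 at 6 months (mean of at least 1 CPM), and the 10 most like the mean of the 10. The labels do not state that libraries of a group are separate litters or days. The p-values set each difference against the spread between these samples, and may not hold for other litters or days. Samples with the same replicate number are different animals, and their deviations correlated from -0.16 to 0.16, so they were not treated as pairs. For Q175 and Q20 at 6 months all 8 values were above 0 (0.041 to 0.161), and 3 were best with their own number. For Q175 and its cage mates 4 of 8 were (values from -0.055 to 0.157), and in the other pairs of groups 0 or 1. The main model has no term for the number, and the replicate block has. The number of counts sets the precision of each value, and errors cover sampling between libraries and not PCR copies. Figures were drawn with matplotlib 3.10.9.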

Additional observations from a re-analysis of the deposited data

Results flagged for a closer look

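In 17 of 260 sets of 8 libraries (a gene in a group), 1 library lay far from the other 7, where chance alone gives about 1 in 20. Q80 M5 at 2 months, the library with the lowest correlation with the others (0.901) and 24.1% mitochondrial counts, was such a library for 5 genes, with 5.72 FPKM of Abcb1a, 7.02 of Flt1, 4.68 of Pecam1, 23.8 of Rgs5 and 15.9 of Slco1a4, each the lowest of its group. Q92 F1 at 10 months was the highest of its group for Kdr (3.53 FPKM) and Rgs5 (40.5 FPKM), and so was Q92 M1 at 6 months (Kdr 3.44 FPKM, Rgs5 30.4 FPKM). In Slc2a1 the high libraries were Q92 M3 at 10 months (62.8 FPKM) and a wild type housed with Q111, F4 at 6 months (65.9 FPKM).

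The other single libraries were Flt1 in Q80 M2 at 10 months (15.4 FPKM, high), Pecam1 in Q140 F4 at 6 months (6.63 FPKM, low), Rgs5 in Q175 M4 at 6 months (22.8 FPKM, low), Rgs5 in a wild type housed with Q80, F4 at 6 months (22.0 FPKM, low), Slco1a4 in Q175 F3 at 2 months (32.6 FPKM, high) and Slco1a4 in Q80 F3 at 6 months (24.2 FPKM, high). The Q175 change of Pecam1 differed between 6 and 2 months by -0.35 on the log2 scale by a test of the difference itself (edgeR adjusted p = 0.000954).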

How the results depend on the processing

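With DESeq2 and with RLE factors the counts of called genes in Q140 and Q175 were those of the main test, 6 and 7 against Q20 at 6 months, 4 and 8 against cage mates, and 6 and 4 at 10 months. Leaving out each library in turn gave 7 to 8 genes for Q175 against Q20 at 6 months, 6 to 9 against cage mates and 2 to 5 at 10 months. For Q140 it gave 5 to 7, 3 to 5 and 5 to 6. With limma on the FPKM at either pseudocount the count was 5 for Q175 against cage mates and 1 for Q175 at 10 months. On that scale the median over all genes was itself above 0 (0.0686 and 0.0786 against cage mates, 0.0628 and 0.0715 at 10 months, at pseudocounts of 1 and 0.1), and its part in the lost calls was not tested. Requiring an absolute log2 fold change of at least 0.2 left 3 genes in Q140 at 6 months, 3 in Q140 at 10 months, 1 in Q175 at 10 months and 0 in Q92 at 6 months, by its construction. The replicate block gave 7 for Q140 against cage mates (4 without the block), 7 and 8 for Q140 and Q175 against Q20 at 6 months, 9 for Q175 against cage mates, and 5 and 3 at 10 months, and the numbers do not pair the samples. Between the sexes, DESeq2 called 2 genes at 2 months, the libraries that stood apart left out gave 4, those over 15% mitochondrial counts left out gave 2, and the wild-type and Q20 groups alone, with fewer samples, gave 0 at 2 months and 0 at 10 months. The share of all genes called was not counted for any of these alternatives, here or above. A changed count is therefore not read as particular to the 10 genes.

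Directions changed for the following values, none of which had passed. At 2 months limma on the FPKM gave 0.0126 for Flt1 and 0.0118 for Pdgfrb between the sexes, and Tek had -0.0262 without the 5 libraries that stood apart. With wild types as the reference, Q140 at 2 months had 0.143 for Slc2a1 and 0.0298 for Rgs5, Q175 at 2 months had -0.0709 for Kdr, 0.0605 for Slco1a4 and 0.0847 for Rgs5, and Slc2a1 at 10 months had -0.0458 in Q140 and -0.0082 in Q175. Without the 5 libraries that stood apart, the median of the 10 genes at 2 months was -0.05 in Q111, -0.02 in Q140 and -0.03 in Q175, against 0.06, 0.04 and 0.06 with them. At 6 months limma on the FPKM gave, at pseudocounts of 1 and 0.1, 0.0049 and 0.0058 for Tek in Q140, 0.0643 and 0.0675 for Cldn5 in Q175, and 0.0167 and 0.0169 for Slc2a1 in Q175, all against Q20, where the median over all genes was 0.0483 and 0.055 in Q140 and 0.0668 and 0.0763 in Q175, so these values were at or under that of all genes. The tissue scores gave 0.0235 for Cldn5 in Q175. Leaving out single libraries gave Cldn5 values against Q20 from -0.0434 to 0.0465 in Q175 (above 0 without F3, F4, M3 or M4 of Q175, or M1 or M2 of Q20) and from -0.0058 to 0.114 in Q140 (below 0 without Q140 M1). Slc2a1 in Q175 ran from -0.1174 to 0.0152 against Q20 (above 0 without M1 or M2 of Q175, or M4 of Q20) and from -0.0409 to 0.0941 against cage mates (below 0 without Q175 F4, Q175 M4 or wild-type M1), where the L code gave -0.0192. Rgs5 between the sexes at 10 months was -0.0756 in the wild-type and Q20 groups, and the difference of the Q175 change of Cldn5 between 6 and 2 months was -0.0042 without the libraries over 15% mitochondrial counts. The calls most often lost were those of Kdr and Tek, the genes of the lowest level among the 10.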
